A study of Mus musculus with 80 samples.

Results

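The B cell genes followed here are Cd79a, Cd79b, Ms4a1, Cd22, Pax5, Blk, Cr2 and Fcer2a. Every probe on the array whose gene symbol was one of these 8 names was taken, which gave 16 probes, out of 25697 probes that name 16593 genes. RNA came from adult female BALB/c nude mice, which carry the Foxn1nu mutation, have no thymus and are deficient in T cells, and which were injected intravenously with 211At (astatine), an α-particle emitter. All exposed groups and the control group share this strain. The exposed mice were killed 1 h, 6 h or 7 days after 1.7 kBq (n = 3 per group), 1 h after 105 kBq (n = 2) or 6 h after 7.5 kBq (n = 2). The control mice were mock-injected and killed at 24 h (n = 3), a time that no exposed group shares, so that time after injection and exposure cannot be told apart. Spleen, lungs, liver, kidney medulla and kidney cortex were each measured on 16 Illumina MouseRef-8 arrays, 80 in all. No source used here gives the age of the mice more closely or says which tissue samples came from the same mouse.

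B cells recognise antigen with a membrane immunoglobulin that cannot signal on its own, and the paired chains encoded by Cd79a and Cd79b pass the signal into the cell. Blk is a Src family kinase that acts just downstream of these chains, while Cd22 is an inhibitory receptor and Cr2 a complement receptor that lowers the threshold for activation. Ms4a1 encodes CD20, Fcer2a encodes CD23, the low-affinity receptor for immunoglobulin E, and Pax5 is the transcription factor that holds cells in the B lineage. Spleen is a main site of mature B cells in the mouse, and nude mice retain B cells although they lack mature T cells from a thymus.

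Promoter sequences are shown because the members share a cell type and B lineage factors are known to bind near such genes. The RefSeq table of promoters (build GRCm38.p6, 250 bases before and 50 after each start) held 7 promoters of 5 members, and those of Cd79b, Ms4a1 and Blk are only named here. Both strands were searched for 4 motifs, the octamer ATGCAAAT, CCCNNGGG of the type bound by EBF1, GAGGAAGT of the type bound by PU.1, and CAGGTG, an E box of the type bound by E2A. The E box was found in 4 of the 7 promoters, against 20.2% of all 32851 promoters, and CCCNNGGG in 1 of 7, against 13.7% of all. The octamer and GAGGAAGT were in none of the 7, against 1.74% and 3.2% of all promoters. Matched letters are in capitals below, CACCTG is the E box read on the other strand, and a match is a description of the letters only. The promoters of Cd79a (chr7:24897247-24897546, + strand), Cd22 (chr7:30878979-30879278, - strand), Cr2 (chr1:195176670-195176969, - strand) and 1 of 3 starts of Fcer2a (chr8:3690812-3691111, - strand) read as follows.
Cd79a: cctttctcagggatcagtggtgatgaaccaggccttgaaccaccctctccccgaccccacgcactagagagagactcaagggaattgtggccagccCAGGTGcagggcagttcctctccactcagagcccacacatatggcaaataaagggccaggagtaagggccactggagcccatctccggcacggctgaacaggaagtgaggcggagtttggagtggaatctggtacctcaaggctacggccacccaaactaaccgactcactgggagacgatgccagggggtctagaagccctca
Cd22: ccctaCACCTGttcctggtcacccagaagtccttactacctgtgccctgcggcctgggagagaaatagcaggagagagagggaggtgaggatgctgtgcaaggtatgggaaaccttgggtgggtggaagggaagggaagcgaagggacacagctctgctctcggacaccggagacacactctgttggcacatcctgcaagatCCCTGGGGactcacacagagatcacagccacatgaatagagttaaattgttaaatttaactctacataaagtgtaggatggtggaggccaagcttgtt
Cr2: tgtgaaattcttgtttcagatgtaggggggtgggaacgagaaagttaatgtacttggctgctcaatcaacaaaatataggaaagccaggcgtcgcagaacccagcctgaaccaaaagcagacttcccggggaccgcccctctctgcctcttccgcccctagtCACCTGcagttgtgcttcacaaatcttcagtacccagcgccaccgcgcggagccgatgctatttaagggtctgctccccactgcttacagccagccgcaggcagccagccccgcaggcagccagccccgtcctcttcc
Fcer2a: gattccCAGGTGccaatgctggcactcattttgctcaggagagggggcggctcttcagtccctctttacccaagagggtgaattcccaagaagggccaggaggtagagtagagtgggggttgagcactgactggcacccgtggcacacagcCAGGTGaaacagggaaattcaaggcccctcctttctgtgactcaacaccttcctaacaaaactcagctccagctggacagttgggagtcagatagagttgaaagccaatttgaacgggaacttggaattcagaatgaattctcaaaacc
The E box began 154 bases before the start of Cd79a, 245 before that of Cd22, 88 before that of Cr2, and 244 and 99 before that of Fcer2a, and the CCCNNGGG match of Cd22 began 48 bases before its start. The promoter of Pax5 and those of the other two Fcer2a starts held none of the 4 motifs.

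The arrays differed among themselves before any group was compared. The deposited signals shared nearly the same distribution on all 80 arrays, and a signal of 115.9 (6.857 on the log2 scale) was taken as the edge of background. Arrays were set apart when their median of hepatocyte or exocrine pancreas genes was 4-fold or more over that of the middle array of the tissue. That held for 3 of 80 arrays, which were kidney cortex at 7.5 kBq 6 h replicate 1 (hepatocyte genes 43.9-fold), kidney medulla at 1.7 kBq 7 days replicate 1 (hepatocyte genes 171.9-fold) and spleen at 1.7 kBq 7 days replicate 1 (pancreas genes 72.7-fold). The array labelled kidney medulla at 1.7 kBq 7 days replicate 1 went against its label, since its kidney genes were at background (proximal tubule 6.75, loop of Henle and collecting duct 6.80, log2, lowest of the other 15 medulla arrays 8.72 and 9.61) while its hepatocyte genes (14.35) were at the level of the liver arrays (14.12 to 14.45). The cortex array kept its kidney genes (10.26 and 9.58). Leaving the 3 arrays out changed no call of a member, and medulla values are given below with and without the array that went against its label. Among lung arrays, 1.7 kBq 1 h replicate 1 and 1.7 kBq 7 days replicate 1 had the highest medians of follicular stroma genes (8.39 and 9.26, log2) and of T and NK cell genes (7.92 and 7.80), and control replicate 1 had the highest median of neutrophil genes (10.66, lowest lung array 7.11). Lung 105 kBq 1 h replicate 2 had raised hepatocyte genes (8.69, median lung array 6.76) and lung 7.5 kBq 6 h replicate 1 raised kidney proximal tubule genes (7.73, median 6.72). Leaving both out, which was chosen after seeing the data and leaves 1 array in each of these groups, assumed to vary like the other groups, changed no call of spleen against lungs or of exposed against control lungs. Airway and alveolar genes stood at a median of 12.54 to 13.22 in the lung arrays, against 6.72 to 6.83 in the spleen arrays. Both spleen arrays at 105 kBq 1 h had raised exocrine pancreas genes, under the 4-fold limit (7.23 and 7.27, median spleen array 6.79). Replicate 1 of them also had raised hepatocyte genes (7.44, median 6.71).

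The first question was where the 8 genes were measured above background. In spleen, 7 of 8 genes had at least 1 probe above background on all 16 arrays, and Pax5 was the exception. In lungs the same genes were nearer to background, in liver Cd79a, Cd79b and Fcer2a were above it on most arrays, and in kidney Cd79b and Fcer2a were. For Cd79b (ILMN_2610822) and Fcer2a (ILMN_2975312) this held in liver and kidney by 1 probe only. Levels of different probes are not set against each other, since probes differ in brightness.

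**Figure D1:**
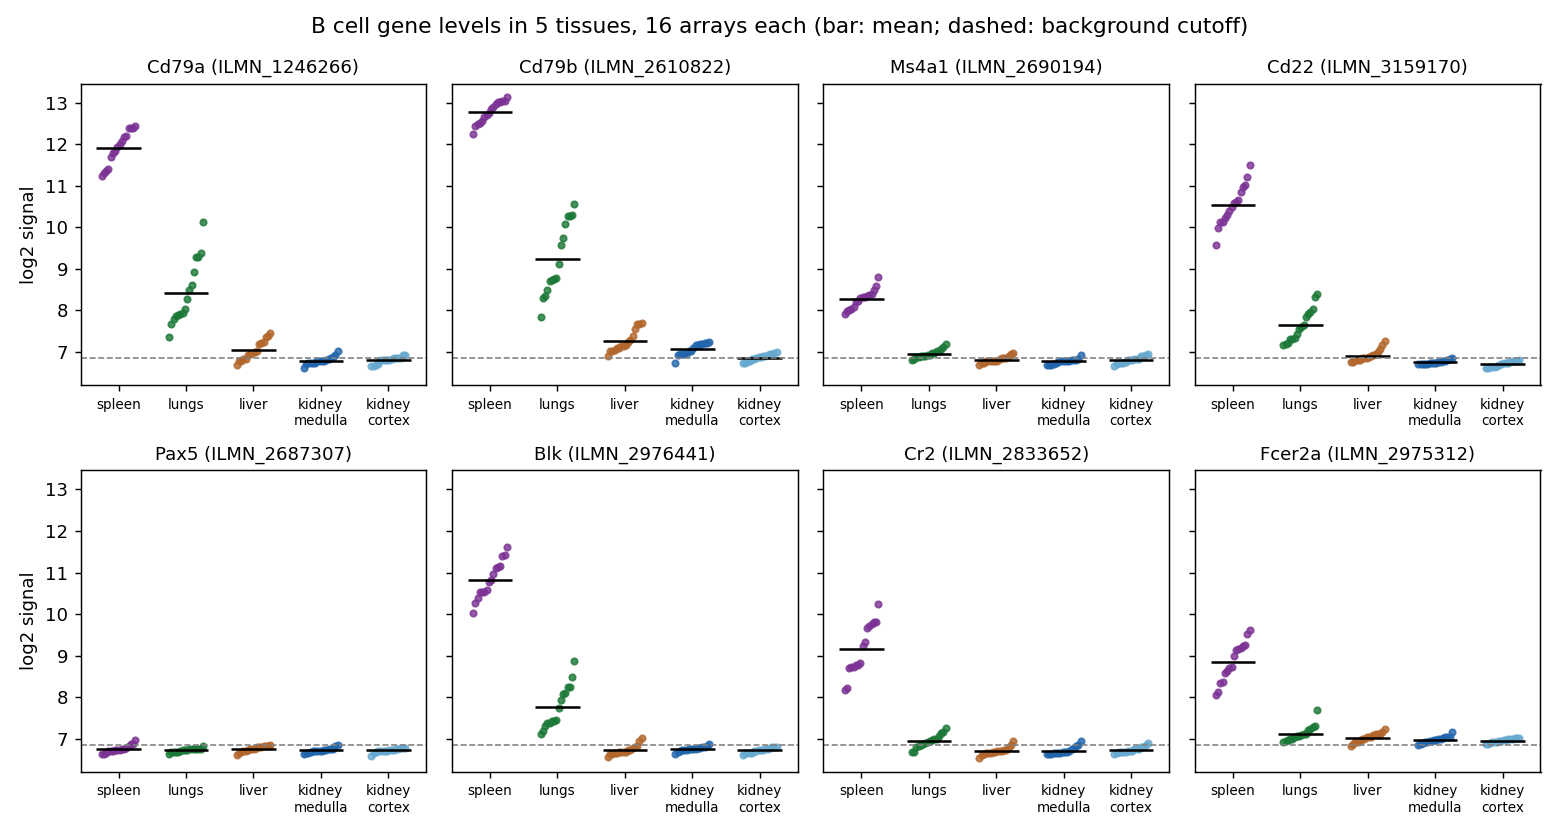
Log2 signal of the brightest probe of each B cell gene in spleen, lungs, liver, kidney medulla and kidney cortex, with 1 point per array (16 per tissue by label, among them the medulla array with kidney genes at background), the mean as a bar and the edge of background (6.857) dashed. For 7 genes the spleen arrays stand above all others, lungs come next for Cd79a, Cd79b, Cd22 and Blk, and Pax5 stays at background in all 5 tissues.

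Cd79a (ILMN_1246266) had a log2 signal of 11.24 at the lowest, 11.98 at the median and 12.43 at the highest of the spleen arrays. In lungs the same values were 7.35, 8.14 and 10.13, and in liver 6.69, 6.98 and 7.46. No lung array reached the lowest spleen array, while lungs and liver overlapped at their edges. In kidney medulla (6.61 to 7.01) and kidney cortex (6.67 to 6.93), 3 and 2 of 16 arrays were above background. The highest medulla value came from the array with kidney genes at background, and without it the medulla arrays reached 6.92, with 2 of 15 above background. Cd79b (ILMN_2610822) had 12.25, 12.79 and 13.13 in spleen, 7.83, 8.94 and 10.56 in lungs, and 6.89, 7.16 and 7.69 in liver. It was above background on all 16 liver arrays, 15 of 16 arrays labelled kidney medulla (15 of 15 without the array with kidney genes at background) and 10 of 16 kidney cortex arrays, and its lungs and liver did not overlap.

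Blk (ILMN_2976441) ranged over 10.02 to 11.61 in spleen and 7.11 to 8.86 in lungs, and 2 of 16 liver arrays were above background. Cd22 (ILMN_3159170) ranged over 9.58 to 11.5 in spleen and 7.17 to 8.39 in lungs, with 8 of 16 liver arrays above background. By their means, these 2 genes thus shared with the Cd79 chains the order of spleen above lungs above the other tissues. For Blk the mean in liver (6.72) was not above that in kidney medulla (6.75). Cr2 (ILMN_2833652) ranged over 8.16 to 10.25 in spleen and 6.68 to 7.25 in lungs, where 11 of 16 arrays were above background. Fcer2a (ILMN_2975312) ranged over 8.06 to 9.62 in spleen and 6.91 to 7.7 in lungs. By this probe, at least 15 of 16 arrays were above background in liver and in each part of the kidney. Without the medulla array with kidney genes at background it was 14 of 15 in medulla. The means there were near the edge (7.02 in liver, 6.97 in medulla and 6.95 in cortex). The other Fcer2a probes were above background on 0 of 16 arrays in each part of the kidney. In liver they were above it on 0 (ILMN_2652875) and 1 (ILMN_2652877) of 16, so this was seen by 1 probe only. Ms4a1 ranged over 7.91 to 8.8 in spleen and 6.8 to 7.2 in lungs, with 14 of 16 lung arrays above background. Pax5 was at or under background on every array outside spleen and above it on 3 of 16 spleen arrays (6.63 to 6.96), so this probe gave no usable level of Pax5.

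The order of the tissues was tested in 1 limma fit of all 80 arrays, over 10 pairs of tissues and 16 probes. A call means an adjusted p under 0.01 and a difference of at least 1.5-fold, which are the limits of the study. Spleen was above liver, kidney medulla and kidney cortex for 13 of 16 probes in each pair, against 15.2%, 13.4% and 13.5% of all probes called in that direction. The fit of liver alone kept only 9 of the 16 probes, and that of each part of the kidney 5. The rest entered the fit of 80 arrays through other tissues, mostly spleen and lungs, where they are higher. Their differences from liver and kidney rest on those arrays and are understated near background. Lungs were above liver for 5 probes, against 13.9% of all probes. These were Cd79b (log2 difference 1.99 and 1.11), Cd79a (1.41), Blk (ILMN_2976441, 1.06) and Cd22 (ILMN_3159170, 0.71). Against each part of the kidney, lungs were above for 6 probes (background 10.8% for medulla and 11.3% for cortex), the second Blk probe (0.62) being added. For Ms4a1 (0.15), Cr2 (ILMN_2833652, 0.23) and Fcer2a (ILMN_2975312, 0.08), lungs and liver did not differ past the limits. Between liver, kidney medulla and kidney cortex, 0 member probes were called, against 16.3% (liver and medulla), 16.2% (liver and cortex) and 2.36% (medulla and cortex) of all probes, and 3 of 48 had an unadjusted p under 0.05. Probes not kept in the fits of these tissues were at background there and could hardly be called. The 0 here, and the 0 without the 3 arrays below, therefore says little about them. Here the nearest to the limits was Cd79b, with liver 0.40 above kidney cortex (ILMN_2610822, limma, adjusted p = 0.00468, under 1.5-fold). Without the 3 arrays set apart above, spleen and lungs were above medulla for 13 and 6 probes. Liver and cortex against medulla then gave 0 member calls, against 17.4% (liver and medulla) and 2.56% (medulla and cortex) of all probes.

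Spleen and lungs were then compared directly, over the mean of the 6 groups of 32 arrays. For the antigen receptor chains, Cd79b was 12.9-fold (ILMN_2661523) and 11.4-fold (ILMN_2610822) and Cd79a 11.2-fold higher in spleen than in lungs. For the signalling and inhibitory members, Blk was 8.3-fold and 5.8-fold and Cd22 7.43-fold and 4.45-fold higher. For the remaining surface proteins, Cr2 was 4.55-fold, Fcer2a 3.27-fold and Ms4a1 2.49-fold higher by their brightest probes. In lungs the means of these probes were near the edge of background (6.93 for Cr2, 7.1 for Fcer2a and 6.96 for Ms4a1, log2). The same held for the Cd22 probe with 4.45-fold (6.99). The signals still hold their background, so these folds are understated. The sizes of the folds therefore give no order of the genes. In bulk tissue, more B cells and more RNA of a gene per B cell cannot be told apart, and this holds for every comparison below.

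In the limma fit, 13 of 16 probes were called higher in spleen and 0 lower, against 11.7% of 19035 probes called higher. The log2 differences of the brightest probes were 3.51 (SE 0.18, adjusted p = 2.88e-14) for Cd79b and 3.49 (SE 0.18, adjusted p = 5.42e-14) for Cd79a. Those of Blk, Cd22 and Cr2 were 3.05 (SE 0.11), 2.89 (SE 0.13) and 2.19 (SE 0.13), and those of Fcer2a and Ms4a1 were 1.71 (SE 0.13) and 1.32 (SE 0.059). For all 13 probes every spleen array was above every lung array, which held for 9.65% of all probes. The dimmer Fcer2a probes differed by 0.79 (ILMN_2652877) and 0.71 (ILMN_2652875). They were above background on 1 and 3 of 16 lung arrays. Of the 2, ILMN_2652877 was not kept in the fit of lungs alone and entered this comparison through its spleen arrays. The third Blk probe (ILMN_2697505) was at or under background on every lung array, so that spleen was at least 1.43-fold higher. It was kept through its spleen arrays only. Its place among the 13 rests on the measured difference (0.67), since this bound is under 1.5-fold. The probes not called were the third Cd22 probe (ILMN_3079866, 0.34, under 1.5-fold), the second Cr2 probe (ILMN_2696049, 0.18, at or under background on every lung array) and Pax5 (0.03, adjusted p = 0.264).

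**Figure D2:**
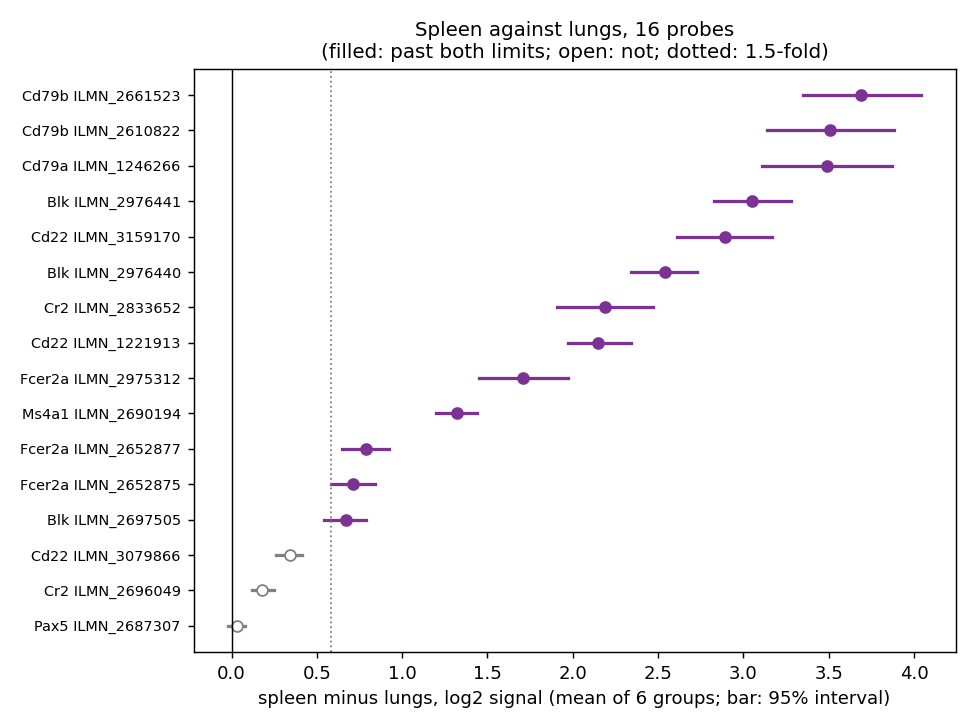
Difference in log2 signal between spleen and lungs for each of the 16 probes, with its 95% interval, filled where both limits were passed and open where not. The differences run from 0.03 for Pax5 to 3.69 for Cd79b, and probes of 1 gene differ, as for Blk (3.05, 2.54 and 0.67).

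Within single groups, 13 of 16 probes were called higher in spleen at 1.7 kBq 1 h, 12 at 6 h and 13 at 7 days, 12 at 105 kBq 1 h, 12 at 7.5 kBq 6 h and 11 in control mice. The shares of all probes called higher in these comparisons were 11%, 11%, 9.97%, 9.34%, 10.5% and 10.1%. The size differed more than the count. For Cd79b (ILMN_2610822) the log2 difference was 4.12 at 1.7 kBq 1 h, 3.82 at 6 h, 3.57 at 7 days, 2.58 at 105 kBq 1 h and 4.20 at 7.5 kBq 6 h, against 2.78 in control mice (SE 0.4 to 0.5). For Cd79a it was 3.92, 3.64, 3.63, 2.76 and 4.26 in the same exposed groups, against 2.73 in control mice.

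The other lists show what else differed between the 2 tissues, each gene by its brightest probe, and the median over all probes was 0.03. Of 20 genes of B cell receptor signalling, 13 were called higher in spleen and 0 lower, with a median log2 difference of 1.13. Among its brightest genes, the phosphatase gene Ptpn6 (2.34) and the adaptor gene Dok3 (2.38) rose, whereas Cd81 (-0.16) and Bcl10 (0.39) did not pass. Of 13 B cell transcription factors, 8 were higher and 1, Id3 (-0.72), was lower (median 1.51). Among the brightest, Pou2af1, an octamer coactivator, differed by 3.79, Irf8 by 2.16 and Mef2c by 1.93, and Bcl6 (-0.43) did not pass. Of 18 genes of B cell surface and homing, 16 were higher and 0 lower (median 1.37), among them the Fc receptor genes Fcmr (3.45) and Fcrla (3.31) and the chemokine receptor gene Cxcr4 (1.62). All 11 genes of MHC class II presentation were higher (median 1.49), with Cd74, the invariant chain, at 0.91 and H2-Eb1 at 1.49.

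Genes of earlier and later B lineage stages moved less evenly. Of 8 plasma cell genes, 3 were higher and 1 lower (median 0.54). Mzb1 (3.97), Irf4 (2.09) and Jchain (2.05) were the higher ones, and Sdc1 (-1.03) the lower. Of 5 measured genes of pro-B and pre-B cells, Il7r (1.06) was higher, while Cd93 (-2.88), which endothelium also expresses, and Vpreb3 (-0.59) were lower.

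Lists of other cells in these organs were also higher in spleen. They were neutrophil genes (8 of 13 called, median 1.51, summed signal 18289 to 121201 in spleen and 8590 to 70023 in lungs), red cell genes (6 of 7, 2.04, 32045 to 77499 and 21436 to 32383) and macrophage genes (8 of 11, 1.53, 7196 to 15785 and 2755 to 5688). T and NK cell genes (11 of 19, median 0.87, summed signal 8024 to 16054 in spleen and 4412 to 11186 in lungs) and follicular stroma genes (5 of 7, 2.49, 9667 to 24377 and 2171 to 7342) were higher too. Of these lists, Cd8a and Tlx1 were at or under background on all arrays of both tissues and Clec4f on all lung arrays. Of 12 airway and alveolar genes, 11 were lower in spleen (summed signal 1311 to 1391 in spleen and 106442 to 130835 in lungs, 5 of 12 genes at or under background on all spleen arrays). The part of these other cells in the B cell gene differences was not tested.

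Exposed mice were compared with control mice in each tissue, the question of the study. Of 230 tests of members in 25 comparisons, limma called 0, and 10 higher and 17 lower values had an unadjusted p under 0.05, against 4.8% and 4.58% of all tests over all probes. Of those 17, 11 were in lungs (of 55 tests, against 3.9% of all lung tests), where most B cell genes were lower 6 h after injection than in control mice without passing the limits.

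**Figure D3:**
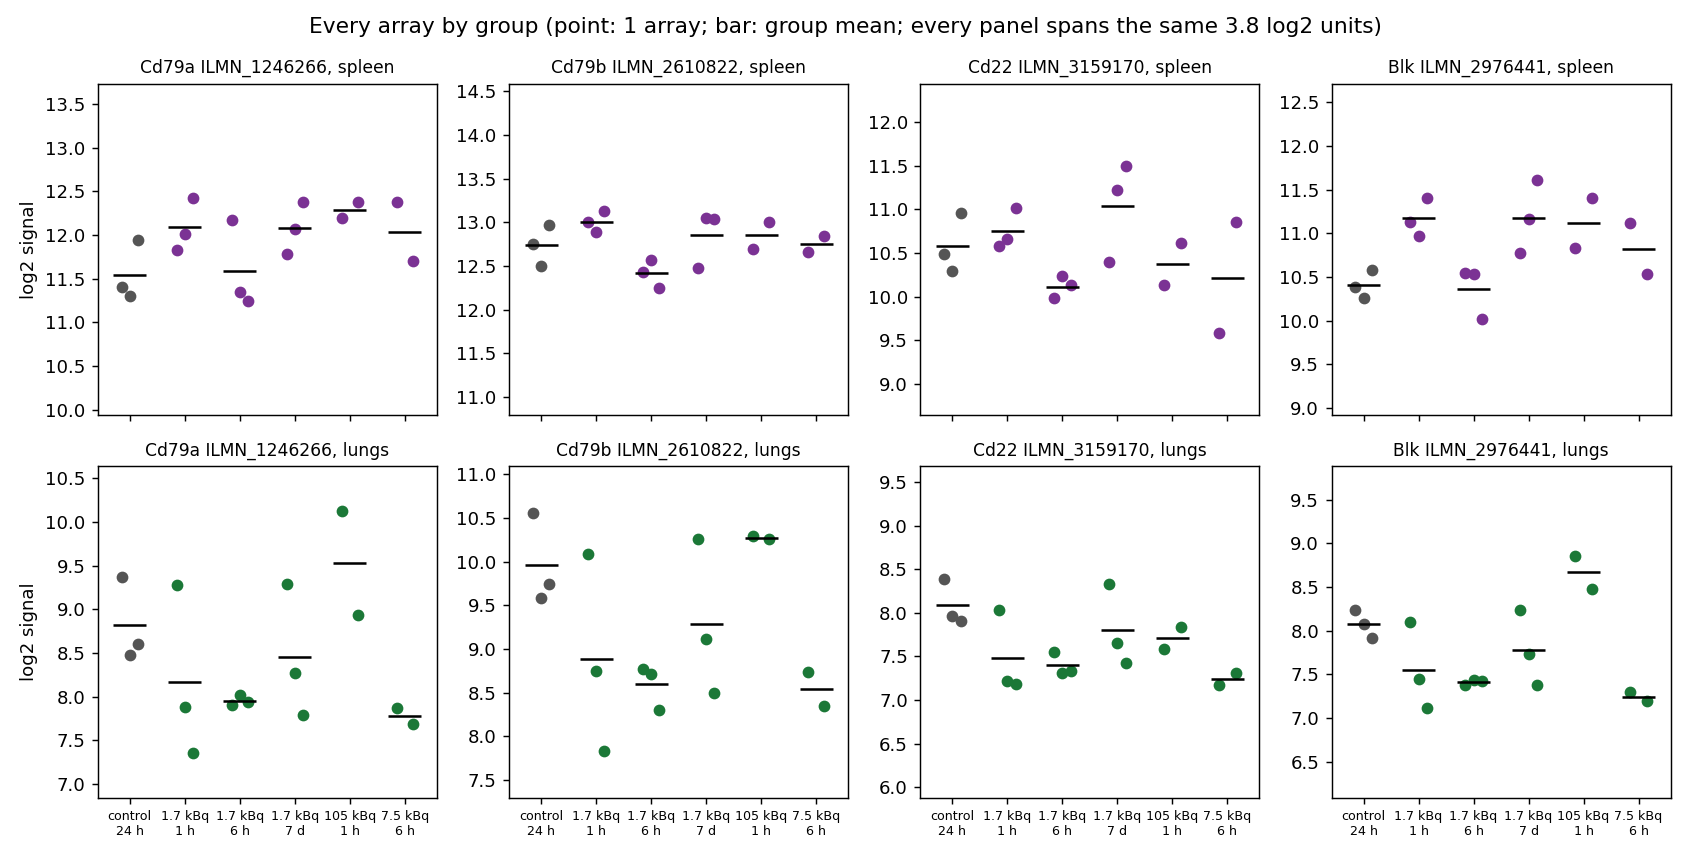
Log2 signal of Cd79a, Cd79b, Cd22 and Blk on every spleen array (upper row) and lung array (lower row), by group, with the group mean as a bar; every panel spans 3.8 log2 units. In lungs all points at 6 h lie under the 3 control points, and the spread within a group is wider in lungs at 1 h after 1.7 kBq than in spleen.

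In lungs, Cd79b (ILMN_2610822) had log2 signals of 8.77, 8.71 and 8.30 at 1.7 kBq 6 h and 8.74 and 8.35 at 7.5 kBq 6 h, against 10.56, 9.58 and 9.74 in control mice. All 5 exposed mice at 6 h were below all 3 control mice. The difference was -1.37 (95% interval -2.51 to -0.23, limma, adjusted p = 0.518) at 1.7 kBq and -1.41 (SE 0.59, adjusted p = 0.563) at 7.5 kBq. Cd79a had 7.90, 8.02 and 7.94 at 1.7 kBq 6 h and 7.87 and 7.68 at 7.5 kBq 6 h, against 9.37, 8.48 and 8.60 in control mice. These groups did not overlap either, and the differences were -0.86 and -1.04 (limma, adjusted p = 0.595 and 0.687).

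Blk (ILMN_2976441) had 7.38, 7.43 and 7.42 at 1.7 kBq 6 h and 7.30 and 7.19 at 7.5 kBq 6 h, against 8.24, 8.08 and 7.92 in control mice, again without overlap (-0.67 and -0.84, limma, adjusted p = 0.513 and 0.399). Cd22 (ILMN_3159170) had 7.55, 7.31 and 7.33 at 1.7 kBq 6 h and 7.17 and 7.31 at 7.5 kBq 6 h, against 8.39, 7.96 and 7.91 in control mice (-0.69 and -0.85, limma, adjusted p = 0.517 and 0.445). The exposed mice at 6 h were closer to each other than the control mice were.

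Of the 11 member probes tested in lungs, 9 had all mice below all controls at 1.7 kBq 6 h, against 7.41% of all probes, and 11 of 11 at 7.5 kBq 6 h, against 13.4%. Some of the 11 were near background, where small differences decide the count. At 7.5 kBq 6 h, Ms4a1 had 6.87 and 6.80, against 6.98, 6.87 and 7.02 in control mice. Fcer2a (ILMN_2652875) had 6.69 and 6.72, against 6.85, 6.82 and 6.87. The shares of all probes called in these comparisons were 0% and 0.018%. These comparisons share the control mice. The 11 probes stand for 7 genes on the same arrays and varied together, so their counts are not counts of independent tests. With both activities at 6 h averaged, a grouping chosen after seeing the data, 9 of 11 were below all controls, against 3.45% of all probes (0.048% called), and the lowest adjusted p in limma was 0.301, for Blk. In the fit of all 80 arrays, which shares 1 estimate of the spread across tissues, limma called Cd79b (ILMN_2610822) lower at 1.7 kBq (adjusted p = 0.00496) and at 7.5 kBq (0.0079) and Blk (ILMN_2976441) at 7.5 kBq (0.00893). In that fit the number of all probes called was 51 in place of 0 at 1.7 kBq and 107 in place of 3 at 7.5 kBq.

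**Figure D4:**
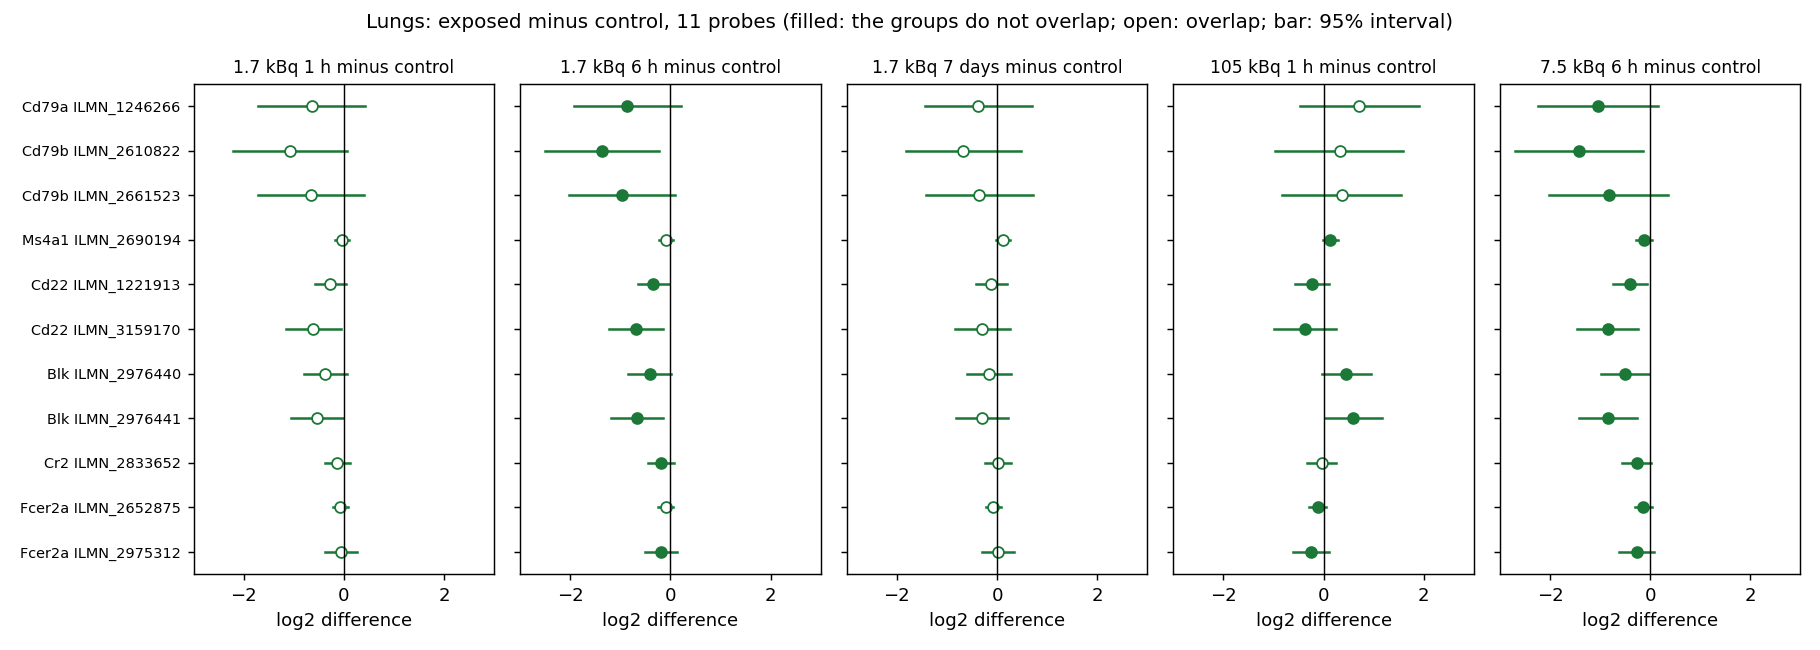
Difference in log2 signal from control in lungs for the 11 tested probes in each exposed group, with 95% intervals, filled where no exposed array overlaps a control array. At 1.7 kBq 6 h and 7.5 kBq 6 h the points are all under 0, and at 105 kBq 1 h they stand on both sides.

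Other lists in lungs at 6 h were read in the same way, with a median over all probes of 0 and -0.01. No gene of any list was called by limma. The member genes had a median of -0.67 at 1.7 kBq and -0.84 at 7.5 kBq, with 7 of 7 genes below 0 at each. Genes of B cell surface and homing had medians of -0.45 and -0.47, with 15 and 18 of 18 below 0, such as Fcmr (-1.04 at both), Cxcr4 (-0.70 and -0.91) and Cd40 (-0.67 and -0.50). Receptor signalling genes had -0.22 and -0.29, transcription factors -0.25 and -0.31, and MHC class II genes -0.33 and -0.23. Plasma cell genes were nearer to 0 (-0.10 and -0.08), as were T and NK cell genes (0.08 and 0) and macrophage genes (-0.06 and 0.07). Follicular stroma genes had -0.22 and -0.13, with 5 of 6 below 0 at each. Only 3 of 8 genes of pro-B and pre-B cells were tested, the others being near or under background. These 3 lay on the other side (median 0.48 and 0.54, 3 of 3 above 0 at each). Vpreb3 was at 1.05 and 0.54 (limma, adjusted p = 0.286 and 0.612), Cd93 at 0.48 and 0.61 and Il7r at 0.22 and 0.39. The medians are thus the values of Cd93, which endothelium also expresses, and of Vpreb3, and give no level of B cell precursors. Neutrophil genes were lower with the members (13 of 13 below 0, -0.45 and -0.61), with a summed signal of 9491 to 49630 at 1.7 kBq and 15673 to 16427 at 7.5 kBq, against 14266 to 70023 in control mice. Of the 13 neutrophil genes, 1 at 1.7 kBq and 3 at 7.5 kBq, against 0 in control mice, were at or under background on all arrays, and the part of these cells in the member values was not tested. Without control replicate 1, the array highest in neutrophil genes, the values at 1.7 kBq and 7.5 kBq were -1.07 and -1.11 for Cd79b (ILMN_2610822), -0.59 and -0.76 for Cd79a, -0.53 and -0.69 for Cd22 (ILMN_3159170) and -0.59 and -0.76 for Blk (ILMN_2976441), and none passed the limits.

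At 1 h the lungs did not show the same picture. After 105 kBq, Blk (ILMN_2976441) had 8.86 and 8.48, against 8.24, 8.08 and 7.92 in control mice, so that both exposed mice were above the controls (0.59, limma, adjusted p = 0.479). Cd79a had 10.13 and 8.93, overlapping with the controls (0.71, adjusted p = 0.746), and Cd22 (ILMN_3159170) had 7.59 and 7.84, both below them (-0.37). Of 11 probes, 3 were all above (Ms4a1 and both Blk probes) and 4 all below (both probes of Cd22 and of Fcer2a), against 12.9% and 14.4% of all probes. Among them, Ms4a1 (7.07 and 7.11) and Fcer2a (ILMN_2652875, 6.80 and 6.65) were near background. The share called was 0.054%. After 1.7 kBq at 1 h and at 7 days, every probe overlapped with control (called 0.0721% and 0%). Within 1.7 kBq 1 h, Cd79b (ILMN_2610822) had 10.09, 8.75 and 7.83, and within 7 days 10.26, 9.11 and 8.50. Replicate 1 was the highest in each, and these are the arrays highest in follicular stroma and T and NK cell genes.

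**Figure D5:**
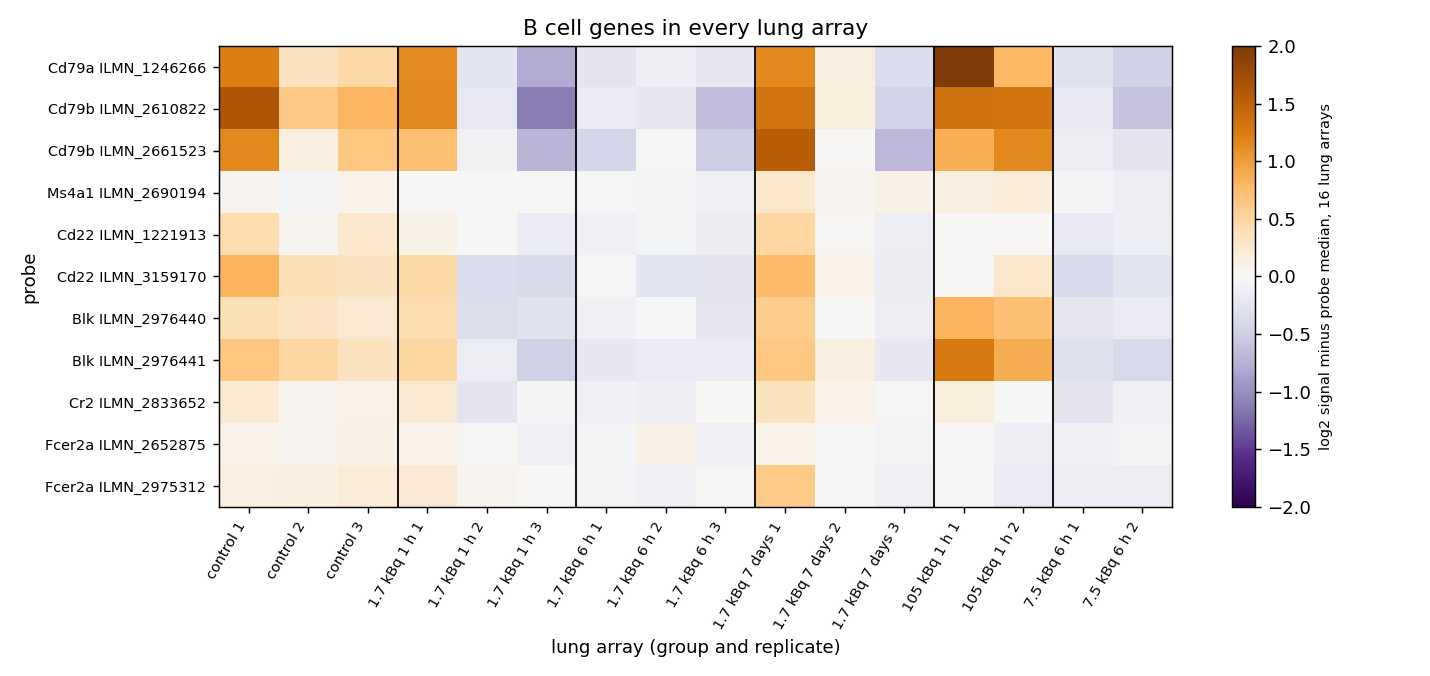
Log2 signal of the 11 tested probes on each of the 16 lung arrays, as the difference from the median of the probe over these arrays (orange above, purple below). The 3 control arrays (10 or 11 of 11 probes above the median), 1.7 kBq 1 h replicate 1 (10), 1.7 kBq 7 days replicates 1 and 2 (11 and 9) and both 105 kBq arrays (10 and 8) are high for most probes, and the 5 arrays at 6 h are low (0 to 2).

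Between the activities at 1 h in lungs, Cd79b (ILMN_2610822) had 10.29 and 10.26 after 105 kBq, against 10.09, 8.75 and 7.83 after 1.7 kBq. The mice at 105 kBq were above all those at 1.7 kBq (1.39, SE 0.59, limma, adjusted p = 0.946). Blk (ILMN_2976441) differed by 1.12 (SE 0.27, unadjusted p = 0.00114, adjusted p = 0.946), and 5 of 11 probes were all above, against 8.88% of all probes. Over the 10 such comparisons in 5 tissues limma called 0 of 92 member tests, with 10 higher and 1 lower at an unadjusted p under 0.05, against 2.92% and 2.82% of all tests. Of all probes, 0.00528% were called at 1 h in liver and 0% in the other 9 comparisons. Without the 2 lung arrays highest in follicular stroma genes, limma called the second Blk probe (ILMN_2976440) higher after 105 kBq (1.07, SE 0.091, adjusted p = 0.00439), 1 of 2 probes called among 16411. Leaving these arrays out was chosen after seeing the data. It removed the 1.7 kBq 1 h array highest for this probe (7.62). The other arrays of that group were near background (6.85 and 6.91). At 6 h in lungs, 7.5 kBq and 1.7 kBq differed by -0.17 to 0.13 over the 11 probes.

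In spleen the exposed and control groups overlapped for most probes. Blk (ILMN_2976441) lay above control in the most groups, with 11.13, 10.97 and 11.41 at 1.7 kBq 1 h, 10.77, 11.16 and 11.61 at 7 days and 10.83 and 11.40 at 105 kBq 1 h, against 10.39, 10.26 and 10.58 in control mice. Those 3 groups were above all controls, by 0.76, 0.77 and 0.70 (limma, adjusted p = 0.367, 0.838 and 0.797). Without the 7 days array that carried pancreas genes, its difference at 7 days was 0.97 (limma, adjusted p = 0.744). At 6 h the difference was -0.04 after 1.7 kBq and 0.42 after 7.5 kBq. In the fit of all 80 arrays the value at 1.7 kBq 1 h was called (adjusted p = 0.00637), among 97 probes in place of 1. Cd79a had 12.20 and 12.38 at 105 kBq 1 h, against 11.40, 11.30 and 11.94 in control mice, both above them (0.74, limma, adjusted p = 0.827). Both arrays at 105 kBq 1 h are those with raised pancreas genes.

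Cd79b lay on the other side at 1.7 kBq 6 h by 1 probe. This probe (ILMN_2661523) had 11.11, 11.19 and 11.03, against 11.66, 11.38 and 11.82 in control mice, all below them (-0.50, limma, adjusted p = 0.494), and 11.85 and 11.89 at 7.5 kBq 6 h, both above them (0.25). Cr2 (ILMN_2833652) had 9.75, 9.67 and 10.25 at 7 days, against 8.21, 8.73 and 9.72 in control mice, which overlapped (1.00, SE 0.39, limma, adjusted p = 0.838, and 1.07 without that 7 days array). The counts of probes all above controls were 2 of 16 at 1.7 kBq 1 h, 1 at 7 days, 4 at 105 kBq 1 h and 1 at 7.5 kBq 6 h, against 7.92%, 4.37%, 11% and 8.86% of all probes. At 1.7 kBq 6 h, 3 of 16 were all below, against 7.11%. The shares called were 0.00577% at 1.7 kBq 1 h and 0% in the other 4 groups.

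Whether exposure moved a gene differently in spleen and lungs was tested as the difference of the 2 effects. Of 80 member tests limma called 0, with 10 at an unadjusted p under 0.05, all with the spleen effect above the lung effect, against 2.49% of all tests in that direction. Over all probes, the shares called were 0.0105% at 1.7 kBq 1 h, 0% at 6 h and 7 days, and 0.021% at 105 kBq 1 h and at 7.5 kBq 6 h. Blk (ILMN_2976441) had the smallest adjusted p, with a difference of 1.29 (SE 0.35, adjusted p = 0.274) at 1.7 kBq 1 h. At 7.5 kBq 6 h the differences were 1.53 for Cd79a (SE 0.66, adjusted p = 0.753) and 1.42 for Cd79b (ILMN_2610822, adjusted p = 0.796).

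In liver, 9 member probes of 6 genes were tested. Cd79b (ILMN_2610822) had 7.17, 6.89 and 7.02 at 1.7 kBq 1 h, against 7.66, 7.28 and 7.38 in control mice, all below them (-0.41, limma, adjusted p = 0.129). It was also below all controls at 7 days (-0.31) and at 7.5 kBq 6 h (-0.33), and at 105 kBq 1 h it had 7.69 and 7.56. The lowest adjusted p of any member in liver was 0.0691, for Cd22 (ILMN_3159170, -0.30) at 1.7 kBq 1 h. At 1.7 kBq 1 h, 2 of 9 probes were all below controls, against 9.8% of all probes, and the shares called were 1.16% at 1.7 kBq 1 h, 0.576% at 6 h, 0.037% at 7 days, 0.956% at 105 kBq and 1.12% at 7.5 kBq. In kidney, 5 member probes were tested in each part and stayed between -0.16 and 0.07 of control in cortex and between -0.22 and 0.20 in medulla. Both ends of the medulla range came from the 7 days group, which holds the labelled medulla array with kidney genes at background, and without that array the range was -0.19 to 0.15, with 0 members called. The shares of all probes called there were 0.221%, 0.0291%, 0%, 0.192% and 0.0989% in cortex at 1.7 kBq 1 h, 6 h and 7 days, 105 kBq and 7.5 kBq, and in medulla 0.0172% at 1.7 kBq 1 h and 0% in the other 4 groups. Without that array, 69 in place of 3 of all medulla probes were called at 1.7 kBq 1 h, 38 at 105 kBq 1 h, 13 at 1.7 kBq 6 h, 17 at 7.5 kBq 6 h and 0 at 7 days.

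The members varied together across mice. Over the 16 lung arrays, the correlation of log2 signals was 0.94 between Cd79a and Cd79b (ILMN_2610822), 0.96 between Cd79a and Blk (ILMN_2976441) and 0.74 between Cd79a and Cd22 (ILMN_3159170). After the group means were taken out it was 0.90, 0.96 and 0.78. In spleen the pairs were less alike, with 0.59 for Cd79a and Cd79b, 0.84 for Cd79a and Blk, 0.23 for Cd79a and Cd22 and 0.06 for Cd79a and Fcer2a. Cr2 and Fcer2a correlated at 0.82 in spleen and 0.72 in lungs. All these points share the array and its normalisation, and the values are a description.

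The mean of the 8 members was set against all other probes in the same way. In lungs its closest followers over 16 arrays were Cd37 (r = 0.961), Gpr18 (0.957), Fcrla (0.955) and Cxcr5 (0.941), then Arhgap15, Evi2a, Ly86, Fcmr, Gpr183 and B3gnt5 (0.931 to 0.917). In spleen they were Ralgps2 (0.93), Bin1 (0.918), Haao (0.913) and H2-DMb1 (0.905), then Acap1, Rras2, Cxcr5, Dmac2, Phtf2 and Fam167a (0.896 to 0.87). Cxcr5, the chemokine receptor of follicular homing, was in both sets of 10. Against list medians, the member mean correlated in lungs at 0.91 with B cell surface and homing genes, 0.6 with T and NK cell genes and 0.59 with neutrophil genes. In spleen it correlated at 0.74 with MHC class II genes and 0.66 with follicular stroma genes, and at -0.75 with neutrophil and -0.72 with red cell genes. The value in spleen was 0.63 for B cell surface and homing genes and 0.3 for plasma cell genes. For B cell transcription factors it was 0.27 in spleen, against 0.9 in lungs.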

How the data were processed

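Total RNA was hybridised to Illumina MouseRef-8 arrays. The deposited intensities had been quantile normalized by the authors with Illumina software and BASE, and later handled in Nexus Expression 2.0. No version of the first 2 programs is given in the sources used here. The intensities are linear and still hold their background (lowest 88.7, median 120.5, highest 27812), and 1 column per mouse and tissue, although the methods name technical triplicates. A second deposited table, with 80 signal and 80 detection columns before normalization, was not used because its column names are not paired with samples.

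Log2 intensities were fitted with limma 3.58.1 in R 4.3.3 (lmFit, contrasts.fit, eBayes), 1 fit per tissue with 6 group means, or 12 group means for spleen and lungs together. The Benjamini and Hochberg adjustment ran over all kept probes of a comparison. A call needed an adjusted p under 0.01 and a difference of at least 1.5-fold. The edge of background was placed 2.33 SD above the most frequent signal of 105.5, with the SD (4.477) taken from values below it, and 54.9% of values lay above it. A probe was kept with at least 2 arrays above it (19035 for spleen and lungs together, 17317 in spleen, 16654 in lungs, 18931 in liver, 17477 in kidney medulla and 17189 in kidney cortex). A fold is a lower bound ("at least") where a probe was at or under background on every array of the dimmer group, computed against the background edge or the probe's own value, whichever was higher. Of 25697 probes, 23978 had a symbol, brought up to date by gene number. The fit was tested on simulated data.

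The members and lists were chosen with earlier results of these data known. Named genes were all members with every probe, up to 4 genes of each list by mean signal, and the 10 genes most like the member mean in lungs and in spleen. Id3, Sdc1, Cd8a, Tlx1 and Clec4f were named outside this rule, after their values were seen. Some genes of these lists are not reported here. No depth is defined for arrays, and their number (2 or 3 per group) limits the precision. Alternatives were other filters, background, normalization, variance prior, array weights, a replicate block, other sets of arrays and each replicate left out.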

Additional observations from a re-analysis of the deposited data

Results flagged for a closer look

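Cd79b was taken up for a closer look because 1 of its probes (ILMN_2661523) lay above all 3 control mice in spleen (0.25, log2) and below all 3 in lungs (-0.83) 6 h after 7.5 kBq. The difference of these effects was 1.08 (limma, adjusted p = 0.872), which did not pass the limits. Its other probe (ILMN_2610822) differed by 1.42 between the tissues (limma, adjusted p = 0.796). Single arrays were not tested as outliers, because every group held 2 or 3 mice.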

How the results depend on the processing

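A chosen set of single-probe results was checked under each alternative tried, including each array left out. Each result was therefore counted many times, such as 45 times for Cd79a in spleen against lungs. Of these checks, which are not independent, 1154 kept the direction and the side of the limits, 5 passed them newly, 2 no longer passed and 1 changed sign. The call of spleen above lungs was made for 13 probes under all alternatives except mode subtraction (14 of 16), the stricter filter (10 of 10 tested) and control mice only (11). With control mice only, Pax5 was at -0.08, Fcer2a (ILMN_2652875) at 0.57 and Blk (ILMN_2697505) at 0.49. Counts of exposed against control moved off 0 only in the fit of all 80 arrays, to 3 in lungs and 1 in spleen, and of higher against lower activity only without the 2 lung arrays highest in follicular stroma genes (chosen after seeing the data), to 1 in lungs. The cause was not tested. With each replicate left out, spleen against lungs gave 13 to 13 calls, single groups 9 to 13, and exposed against control, higher against lower activity and the difference of effects 0 to 0 in every tissue. Cd79b (ILMN_2610822) at 6 h in lungs was then -1.56 to -1.07 at 1.7 kBq and -1.61 to -1.11 at 7.5 kBq. Whether equal replicate numbers mark the same mouse is not known. The correlations over 16 pairs of spleen and lungs (r = -0.14 to 0.26) cannot decide it, since they compare different tissues. The main fits treat the samples as unpaired. With the replicate block, spleen against lungs gave 13 calls, single groups 71 in place of 73 in all, and each comparison of exposure 0. The stricter filter left 0 member probes in liver and kidney, where it gave no value. Signals near background, as for Pax5, Ms4a1 and Cr2 in lungs, understate differences.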
